A study of Rattus norvegicus with 8 samples.

Results

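Voltage-gated calcium and sodium channel genes were examined in hippocampi of 8 adrenalectomized rats, of which 4 were infused with vehicle and 4 with corticosterone. Members were the genes of the deposited table whose symbol begins with Cacna, Cacnb, Cacng or Scn followed by a digit, and 29 of 13272 gene symbols fitted. For each symbol the transcript with the highest mean level over both groups was used. Of the 29 genes, 12 encode pore-forming subunits and 17 auxiliary subunits, and 21 belong to calcium and 8 to sodium channels. By the same rule 40 symbols are in RefSeq (assembly GRCr8), and the other 11 were not analysed here.

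The rats of both groups had lost their adrenal glands, the source of endogenous corticosterone, and carried a jugular vein cannula. After surgery all drank saline with corticosterone, which was changed to saline alone before the experiment. Vehicle was 0.45% saline, and the CORT group received corticosterone at 0.75 mg/mL as the 2-hydroxypropyl-β-cyclodextrin complex in that saline, over 30 min from zeitgeber time (ZT) 2. Per the methods, hippocampi were taken 2 h after the infusion began, while the sample labels give ZT 2 as the time and title the vehicle samples as untreated. The labels describe Sprague-Dawley rats of 3-4 months, whereas the methods describe younger male Lister hooded rats. The deposited table holds 1 level per group for each transcript, in FPKM (fragments scaled by transcript length and by the number of mapped fragments), so the spread between rats and the depth of each library are unknown here. Every CORT over vehicle ratio below is therefore a description of 2 group means without a test, and whether any of them exceeds the variation between rats was not tested.

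Voltage-gated sodium (Nav) and calcium (Cav) channels open when the neuronal membrane is depolarized. Nav channels carry the upstroke of the action potential, and Cav channels admit the calcium that triggers transmitter release, dendritic plasticity and activity-dependent transcription. In both families a single large α subunit forms the pore and senses voltage, while smaller auxiliary subunits set its delivery to the membrane, its gating and its anchoring. Some γ subunits named for calcium channels (Cacng2, Cacng3, Cacng4, Cacng5, Cacng7 and Cacng8) are better known as partners of AMPA-type glutamate receptors, which they help to reach and work at synapses.

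Promoter sequences are shown for 3 pore-forming genes, to let the regions near the start sites be read beside the levels: Cacna1e, one of the genes with the largest ratios, and Scn2a and Scn8a, the most abundant sodium channel α subunits. Each run covers the 250 bases before the start of the gene in RefSeq (assembly GRCr8), 5′ to 3′ on the strand of the gene. Capitals mark a GC box (GGGCGG or CCGCCC) or a hexamer of the glucocorticoid response element (AGAACA or TGTTCT), which covers both strands, and by its letters no GC box can overlap a hexamer.
Cacna1e, GRCr8 chr13:69444811-69445060, minus strand: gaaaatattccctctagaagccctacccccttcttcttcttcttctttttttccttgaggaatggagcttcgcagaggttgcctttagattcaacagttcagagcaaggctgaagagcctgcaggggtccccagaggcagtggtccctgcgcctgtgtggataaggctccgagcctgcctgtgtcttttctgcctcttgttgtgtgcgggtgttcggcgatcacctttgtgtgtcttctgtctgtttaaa
Scn2a, GRCr8 chr3:70710706-70710955, plus strand: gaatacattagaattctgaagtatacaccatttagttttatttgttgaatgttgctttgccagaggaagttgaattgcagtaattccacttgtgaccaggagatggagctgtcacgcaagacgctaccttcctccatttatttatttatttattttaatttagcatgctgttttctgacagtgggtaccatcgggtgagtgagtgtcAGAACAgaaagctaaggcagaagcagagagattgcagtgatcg
Scn8a, GRCr8 chr7:133860977-133861226, plus strand: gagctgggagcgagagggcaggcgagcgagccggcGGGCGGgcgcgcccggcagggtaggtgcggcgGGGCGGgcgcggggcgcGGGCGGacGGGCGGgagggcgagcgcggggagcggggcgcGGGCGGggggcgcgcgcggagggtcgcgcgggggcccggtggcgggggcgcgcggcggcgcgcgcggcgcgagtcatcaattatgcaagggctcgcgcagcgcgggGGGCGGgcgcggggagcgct

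RefSeq promoters were matched for 19 of the 29 members, with 22 start sites in all. The members' promoters were rich in CpG, with a median of 24.5 CpG in the window against 5 over all 33469 promoters, and a median GC content of 71.8% against 51.2%. They were far from uniform. Scn8a held 53 CpG and 6 GC boxes, whereas Cacna1e held 6 CpG and Scn2a 4, both without a GC box. A GC box was present in 12 of the 22 promoters and in 30.5% of all promoters. Cacna2d1 entered with several start sites, and its windows at 20329863-20330112 and 20329875-20330124 share nearly all bases. The same GC boxes and CpG of this gene thus enter the count and the medians more than once. A glucocorticoid hexamer was present in 3 of the 22, those of Scn2a, Scn4b and Cacng5, and in 17.5% of all promoters. The complete element, AGAACA followed after any 3 bases by TGTTCT, was found in 0 of the 22 and in 4 of all promoters. The log2 ratios of the 3 genes with a hexamer were 0.20, 0.19 and -0.11 in that order. A match of letters does not show that a factor binds there, and distant elements lie outside this window.

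As a check of the group labels, genes known to respond to glucocorticoids were examined first. The paper already names Per1, Sgk1, Klf9 and Tsc22d3, which are on the list, as regulated by corticosterone in this experiment. The list was chosen with earlier results of these data known, so the check is not independent of them. All 8 on the list were higher in the CORT group, with a median log2 ratio of 0.92, and Per1, a clock gene, stood at 10.2 FPKM in vehicle-infused and 19.7 FPKM in CORT-infused rats. The channel genes differed far less. Their log2 ratios lay between -0.16 and 0.66, with a median of 0.14. Over all 12795 symbols with a mean of at least 1 FPKM, which all 29 members reached, the median was 0.02 and the quartiles were -0.10 and 0.12. Of the members, 25 were higher in the CORT group and 4 lower, that is 86.2% higher, beside 54.9% of all symbols and 58.8% of those with at least 5 FPKM. With log2 ratios centred on the median of all symbols, each member kept its sign.

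A level at least 25% above vehicle, or the same ratio below it, a log2 ratio of 0.32 in either direction, was used as the size limit. It was passed by 4 members, all of them higher in the CORT group and all pore-forming: Scn1a, Cacna1i, Cacna1e and Cacna1g. Of all symbols, 13.7% passed it, 5.43% as higher and 8.28% as lower in CORT, so the members passing in either direction made up about the same share as in all symbols. Of the 29 members 4 were higher by that much and 0 were lower. Just inside the limit lay Cacna1g with 0.33, and just outside lay Scn2b with 0.29 and Scn8a with 0.27. Scn1a passed through 1 of its 2 transcripts alone, which was the lower of the 2 with vehicle and the higher with CORT. The CORT level of that transcript thus decided its choice by mean level. The other Scn1a transcript, with a log2 ratio of -0.33, passed the limit as lower. With transcripts summed per gene, 2 of the 29 passed, Cacna1e and Cacna1i, beside 12.9% of all symbols.

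All 12 pore-forming genes had higher levels in the CORT group, with a median log2 ratio of 0.21, a ratio of 1.16. Of all symbols 54.9% were higher. So were 16 of 17 ionotropic glutamate receptor symbols and 55 of 73 potassium and HCN channel symbols. Of the 17 auxiliary genes 13 were higher and 4 lower, with a median of 0.13. None of the auxiliary genes passed the size limit. The roles also differed in level, with a median of 34.1 FPKM over auxiliary and 10.8 FPKM over pore-forming genes. The limit was passed by 13.7% of all symbols and by 7.72% of those with at least 5 FPKM. The log2 ratios of the 2 roles overlapped, since 5 of the 12 pore-forming genes had lower ones than Scn4b, an auxiliary gene at 0.19. Scn2b, the highest auxiliary gene at 0.29, lay above most pore-forming genes, among them Scn8a at 0.27. Whether the roles differ was not tested, since genes are not replicates of a treatment. Summed over genes, pore-forming transcripts amounted to 159 FPKM in vehicle-infused and 184 FPKM in CORT-infused rats, a ratio of 1.16. The ratio of sums was 1.07 over auxiliary genes and also 1.07 over all symbols.

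**Figure D1:**
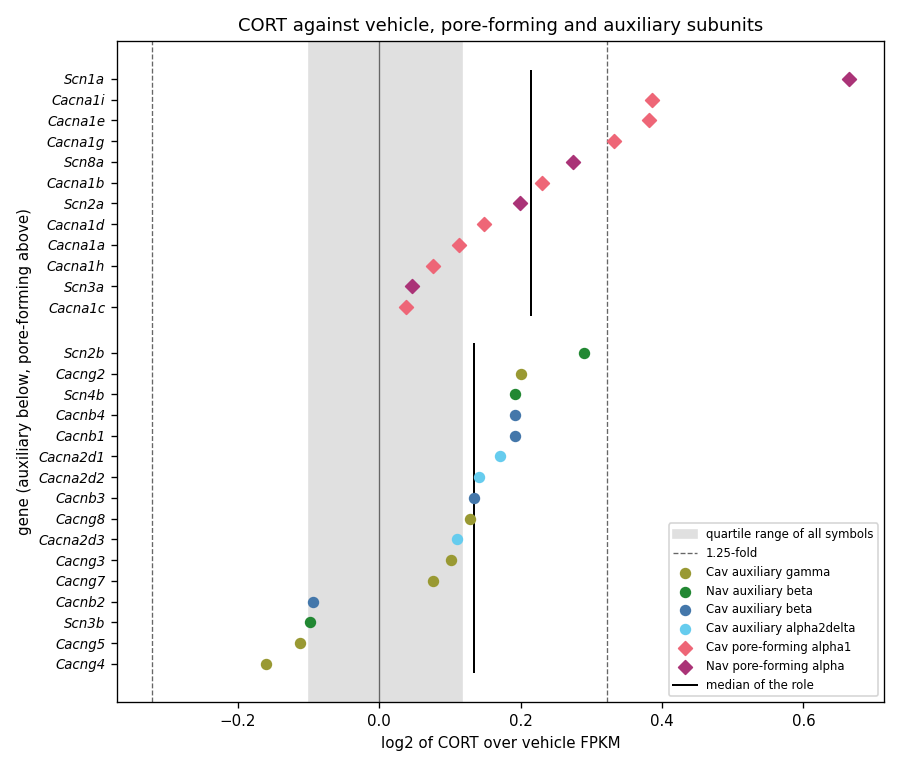
Log2 of the CORT over vehicle FPKM (x axis) for 28 of the 29 channel genes, with pore-forming genes as diamonds above and auxiliary genes as circles below, coloured by subunit class. The grey band spans the quartiles of all symbols, dashed lines mark the size limit of 25% and black lines the medians over all 29, 0.21 for pore-forming and 0.13 for auxiliary genes; all 12 diamonds lie right of 0.

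Among the sodium channel α subunits, Scn2a was the most abundant. This gene encodes the channel found at the axon initial segment and along unmyelinated axons of excitatory neurons, and it was at 33.5 FPKM in vehicle-infused and 38.4 FPKM in CORT-infused rats. Scn8a, whose product dominates at the mature initial segment and at nodes of Ranvier, was at 24.0 and 29.1 FPKM, a log2 ratio of 0.27. Both abundant genes were thus higher by a similar step, and their shares of the α subunit total moved little, from 52.5% to 51.5% for Scn2a and from 37.7% to 38.9% for Scn8a. Scn3a, best known from the embryonic brain, was at 4.83 and 4.99 FPKM. The table gives Scn2a and Scn3a the same interval on chromosome 3 of rn6, from 51508572 to 52120290, and the sequences of Scn1a, Scn2a and Scn3a are closely alike. How reads were divided between these genes was not tested.

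Scn1a, the sodium channel α subunit of fast-spiking interneurons, was the least abundant member, with a mean level above that of only 10.6% of all symbols. Its interval in rn6 runs from 52381974 to 52510507 on chromosome 3. The chosen transcript was at 1.39 FPKM in vehicle-infused and 2.21 FPKM in CORT-infused rats, a log2 ratio of 0.66, the largest among the 29. The other transcript went the opposite way, from 1.83 to 1.45 FPKM, a log2 ratio of -0.33. Together they amounted to 3.22 and 3.66 FPKM, a log2 ratio of 0.18, under the size limit. The share of the chosen transcript was 43.2% with vehicle and 60.3% with CORT. With 1 FPKM added to both groups the log2 ratio of the chosen transcript was 0.42. The large ratio thus belongs to a single weakly expressed transcript.

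The sodium channel β subunits, single-span proteins that modulate gating and act in cell adhesion, included genes more abundant than any α subunit. Scn3b was at 181 FPKM in vehicle-infused and 169 FPKM in CORT-infused rats and so was lower in the CORT group, at a log2 ratio of -0.10. Scn2b, whose protein is joined to the α subunit by a disulfide bond, was at 71.8 and 87.8 FPKM. Its log2 ratio of 0.29 was the largest of the auxiliary genes and higher than that of 93.4% of all symbols. Scn4b, which is linked with resurgent sodium current, was at 10.4 and 11.9 FPKM. Scn3b and Scn2b thus differed between the groups in opposite directions.

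**Figure D2:**
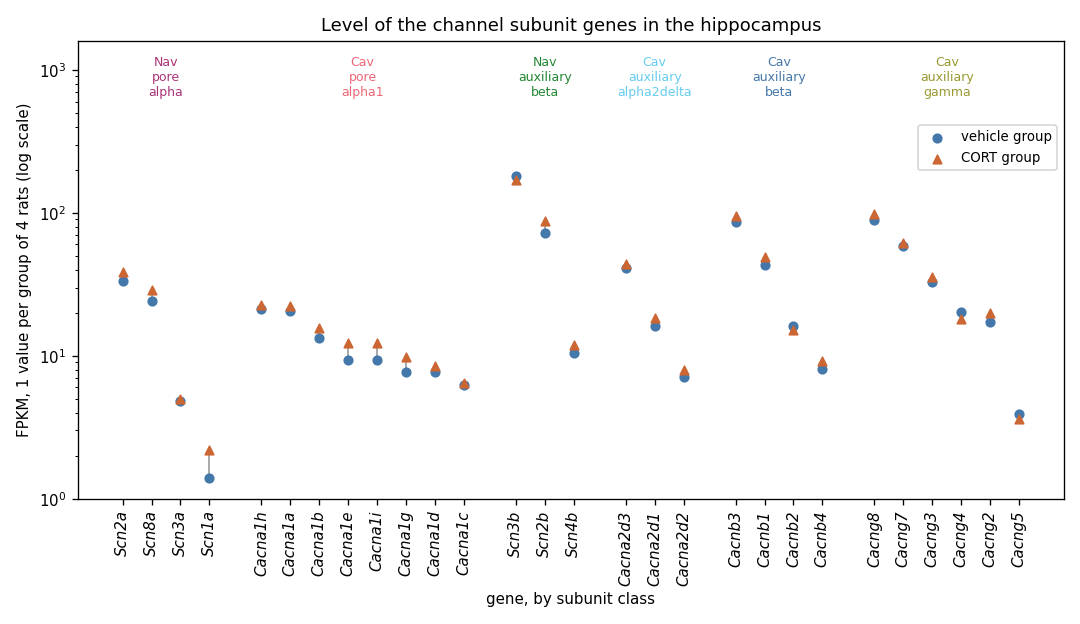
FPKM on a log scale (y axis) for 28 of the 29 channel genes, grouped by subunit class and ordered by mean level, with blue circles for the vehicle group and orange triangles for the CORT group, each 1 value for 4 rats and without error bars since no value per rat was used. Differences between genes, from 1.39 FPKM for Scn1a to 181 FPKM for Scn3b, are far larger than those between the groups.

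The calcium channel α1 subunits included L-type, P/Q-type, N-type, R-type and T-type genes. In the L-type, which couples depolarization to gene transcription in neurons, Cacna1d was at 7.69 FPKM in vehicle-infused and 8.52 FPKM in CORT-infused rats, and Cacna1c at 6.25 and 6.42 FPKM. Cacna1c was the least abundant α1 gene and had the smallest ratio of all pore-forming genes, a log2 ratio of 0.04. Of the presynaptic types, the P/Q-type gene Cacna1a was at 20.5 and 22.1 FPKM and the N-type gene Cacna1b at 13.3 and 15.6 FPKM. These 2 types drive most fast transmitter release, and their log2 ratios were 0.11 and 0.23. The R-type gene Cacna1e, whose channel acts in dendritic spines and at presynaptic sites of hippocampal neurons, was at 9.40 and 12.3 FPKM. Its log2 ratio of 0.38 exceeded that of 96.1% of all symbols. The gene lies between 71906701 and 72367980 on chromosome 13 of rn6.

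T-type channels open near the resting potential and support burst firing. Their 3 genes did not show like ratios. Cacna1h was the most abundant α1 gene, at 21.3 FPKM in vehicle-infused and 22.5 FPKM in CORT-infused rats, and its log2 ratio was 0.08. Cacna1i, between 121511096 and 121619194 on chromosome 7 of rn6, was at 9.35 and 12.2 FPKM, a log2 ratio of 0.39. Cacna1g, between 82129505 and 82197848 on chromosome 10, was at 7.75 and 9.75 FPKM, a log2 ratio of 0.33. With vehicle Cacna1h made up 22.3% of the α1 total, and with CORT 20.6%, while Cacna1e went from 9.84% to 11.2% and Cacna1i from 9.79% to 11.2%. No spread is known for these shares, and the order of the α1 genes by their chosen transcripts was the same in both groups. With transcripts summed per gene, Cacna1g stood above Cacna1i with vehicle, at 10.5 against 10.1 FPKM. With CORT it then stood below, at 13.0 against 13.6 FPKM.

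The α2δ subunits, extracellular proteins that raise the number of calcium channels at the membrane and bind gabapentin in some forms, had narrow ratios. Cacna2d3 was at 40.9 FPKM in vehicle-infused and 44.1 FPKM in CORT-infused rats, Cacna2d1 at 16.2 and 18.3 FPKM, and Cacna2d2 at 7.15 and 7.89 FPKM. Their log2 ratios lay between 0.11 and 0.17. The β subunits bind the α1 subunit inside the cell and release it to the membrane. Cacnb3 was the most abundant at 86.4 and 94.8 FPKM, followed by Cacnb1 at 43.1 and 49.2 FPKM. Cacnb4, at 8.06 and 9.21 FPKM, had the same log2 ratio as Cacnb1, 0.19. Cacnb2 was at 16.2 and 15.2 FPKM and alone among the β genes was lower in the CORT group, with a log2 ratio of -0.09 that became 0.01 when its transcripts were summed. Leaving out the γ genes, auxiliary transcripts amounted to 2.28 times the α1 level with vehicle and 2.18 times with CORT.

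The γ genes were led by Cacng8, the main AMPA receptor partner of the hippocampus, with 89.2 FPKM in vehicle-infused and 97.5 FPKM in CORT-infused rats. Cacng7 was at 58.6 and 61.7 FPKM and Cacng3 at 32.9 and 35.3 FPKM. Cacng2, which encodes stargazin, was at 17.3 and 19.9 FPKM, a log2 ratio of 0.20, the highest of the class. Cacng4 went the other way, from 20.1 to 18 FPKM, the lowest log2 ratio of the 29 genes at -0.16. Cacng5 was at 3.91 and 3.61 FPKM. Hence Cacng4 stood above Cacng2 with vehicle and below it with CORT, and the other γ genes kept their order.

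Of the 29 genes 11 had 2 transcripts each, and in 8 of these both transcripts had the same sign. The exceptions were Scn1a, Cacnb1 and Cacnb2. For Cacna1e the minor transcript was also higher with CORT, 2.14 against 3.42 FPKM, a log2 ratio of 0.68, and the sum of both gave 0.44. For Cacna1i the minor transcript went from 0.792 to 1.34 FPKM and the sum gave 0.42. These 2 genes passed the size limit with either way of counting. For Cacna1g the minor transcript had a log2 ratio of 0.25 and the sum one of 0.31, just under the limit. The minor transcript of Cacna2d1 went from 0.844 to 1.90 FPKM, a log2 ratio of 1.17, and its share of the gene from 4.95% to 9.42%. For Cacnb2 the minor transcript went from 5.66 to 6.89 FPKM while the major one was lower. Transcripts of 1 gene can share reads, and their separate levels depend on how the reads were assigned.

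**Figure D3:**
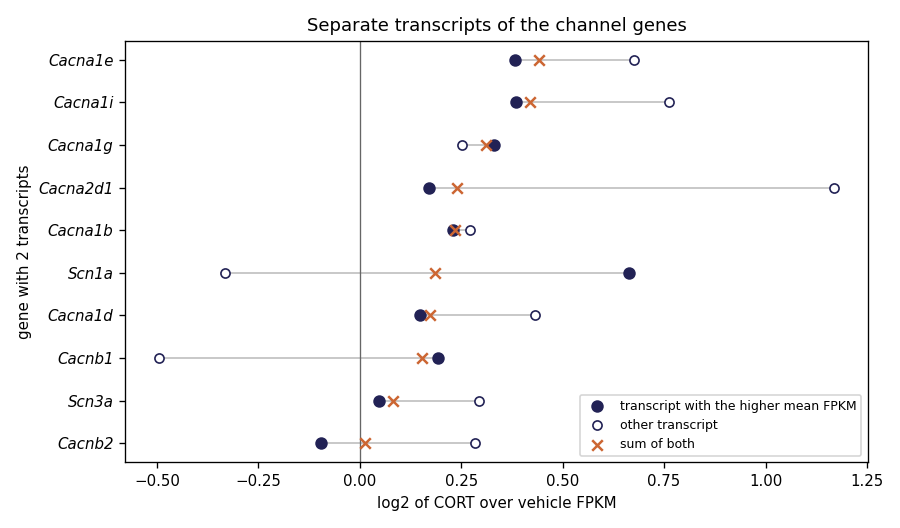
Log2 of the CORT over vehicle FPKM (x axis) for 10 of the 11 channel genes with 2 transcripts, with filled circles for the transcript of higher mean FPKM, open circles for the other and crosses for their sum. Scn1a, Cacnb1 and Cacnb2 have circles on both sides of 0, and the crosses of Cacna1e and Cacna1i lie at 0.44 and 0.42.

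Further genes came from 3 lists: partners of Nav channels, partners of Cav channels including some AMPA receptor partners, and related cation channels. Together they are called partner genes here, although the related channels are not partners of Nav or Cav channels. Of these 42 genes, 36 had a mean of at least 1 FPKM. Their median log2 ratio was 0.09, with 24 higher and 12 lower in CORT. The size limit was passed by 2 higher and 2 lower genes of the 36, a share no larger than the 13.7% of all symbols (5.43% higher and 8.28% lower). Fgf12, a fibroblast growth factor homologue that binds the tail of Nav α subunits, was at 42.1 FPKM in vehicle-infused and 53.2 FPKM in CORT-infused rats. Cachd1, an α2δ-like protein, was at 5.39 and 7.15 FPKM. Lower were Gem, at 2.11 and 1.43 FPKM, and Rrad, at 2.11 and 1.52 FPKM. Both encode small GTPases of the RGK family that inhibit calcium channels, and both had mean levels under 5 FPKM. A further member of that family, Rem2, was at 10.03 and 9.27 FPKM. With transcripts summed per gene, Fgf12 and Rrad, with 2 transcripts each, no longer passed the limit, and 2 partner genes passed, Cachd1 and Gem. Ank3, which encodes the ankyrin that anchors Nav channels at the axon initial segment, was at 15.8 and 14.3 FPKM. Among related channels, Nalcn, the sodium leak channel, was at 9.45 and 11.2 FPKM, a log2 ratio of 0.24.

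Markers of cell types in and around the hippocampus also differed between the groups. The tissue carried its defining genes, with Slc17a7, the vesicular glutamate transporter of excitatory neurons, at 736 FPKM in vehicle-infused and 794 FPKM in CORT-infused rats. Of the 7 excitatory markers with a value 5 were higher in CORT, beside 54.9% of all symbols. The median log2 ratio of these markers was 0.11, and their summed level was 2712 and 2960 FPKM. Summed over all symbols the level was 541355 and 576928 FPKM, a ratio of 1.07. All 8 markers of GABA interneurons were higher, with a median of 0.35 and summed levels of 413 and 514 FPKM. Sst, the somatostatin of a class of interneurons, was at 151 and 195 FPKM. In contrast all 8 oligodendrocyte markers were lower, with a median of -0.24 and summed levels of 5467 and 4526 FPKM. Of the astrocyte markers 6 of 8 were lower (median -0.31, summed 2009 and 1577 FPKM), and of the microglial markers 7 of 8 (median -0.23, summed 252 and 217 FPKM).

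Vascular and neighbouring tissue markers were mostly lower as well. For meningeal fibroblasts 6 of 7 were lower, with a median log2 ratio of -1.15 and summed levels of 114 and 83.8 FPKM, of which Igf2 alone made up 59.0 and 46.3 FPKM. For thalamus and habenula all 6 with a value were lower, with a median of -1.13 and summed levels of 35.0 and 15.8 FPKM. These were the lowest medians of the marker lists. For endothelial cells 6 of 7 were lower (median -0.44, summed 94.1 and 79.7 FPKM), for oligodendrocyte precursors 4 of 7 (median -0.18, summed 174 and 169 FPKM), and for choroid plexus 5 of 7 (median -0.02, summed 6765 and 6752 FPKM). None of the markers with a value was listed at 0. Channel genes and markers of hippocampal excitatory neurons and GABA interneurons were thus mostly higher in the same comparison, as were 54.9% of all symbols. Markers of glia, and those of thalamus and habenula, were mostly or all lower. In whole hippocampus a change in the number of cells of a type and a change in RNA per cell cannot be told apart, and the part of tissue composition in the channel levels was not tested. The median log2 ratio was 0.12 over 73 potassium and HCN channel symbols and 0.12 over 17 ionotropic glutamate receptor symbols. It was 0.14 over the calcium and sodium channel genes. Single ratios ranged more widely in the other families, from -0.54 to 1.27 and from -0.76 to 0.77, against -0.16 to 0.66. The size limit was passed by 11 higher and 5 lower of the 73, and by 4 higher and 1 lower of the 17. Counted in either direction, both are larger shares than the 13.7% of all symbols (5.43% higher and 8.28% lower).

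**Figure D4:**
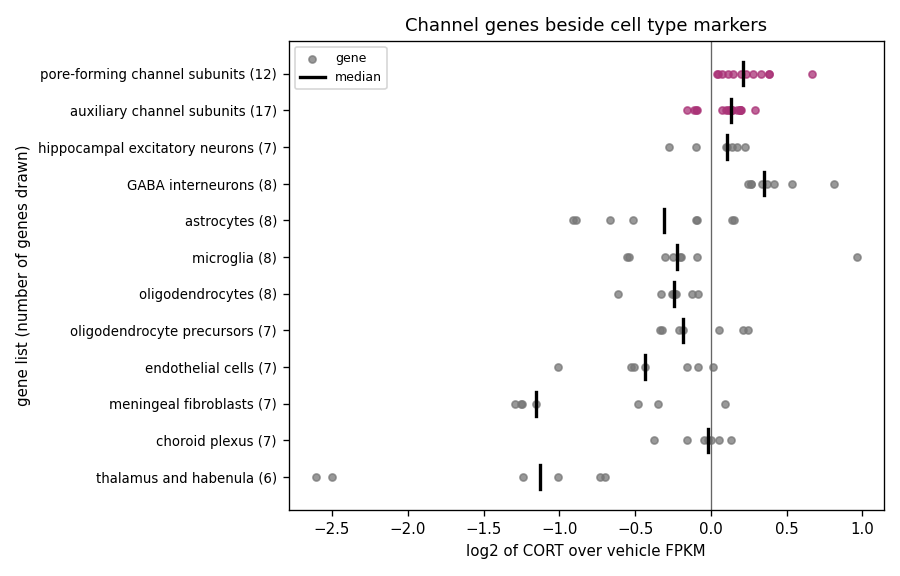
Log2 of the CORT over vehicle FPKM (x axis) for pore-forming and auxiliary channel genes (purple) and for markers of 10 cell types or tissues (grey), 1 point per gene with the median as a black bar. The channel medians of 0.21 and 0.13 lie near the 0.11 of excitatory neurons and below the 0.35 of GABA interneurons, while glial medians lie left of 0.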

How the data were processed

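Stranded total RNA libraries from hippocampi of 8 rats (4 per group) were sequenced. According to the submitters' processing notes, CASAVA 1.8.2, TopHat2 2.0.10 and Cuffdiff 2.2.0 were used with the rn6 build. The authors deposited 1 FPKM value per group and transcript, after geometric library normalization and corrections for multi-mapped reads, sequence bias and effective length, and removed those that failed their test for a low alignment count. The columns with the authors' fold changes, test statistics, p- and q-values were not used, so no test is given.

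From 16266 transcripts, 1 per symbol was kept, that with the highest mean FPKM, and log2 of CORT over vehicle was computed without a pseudocount. Symbols with a mean of at least 1 FPKM over both groups entered counts and medians. The limit of 25% above vehicle, or the same ratio below it, is a size, not a significance. Depth per library, and hence a precision for single values, is unknown. Members and gene lists were chosen with earlier results of these data known. Members were reported one by one, except 1 that is not reported here and enters only counts and medians. Partner genes past the limit were named, and Rem2, Ank3, Nalcn and the single markers named as examples were chosen after their values were seen. Alternatives were fold limits of 1.1 and 1.5, other filters and pseudocounts, summed transcripts and median centring. Functions were tested on simulated data. Python 3.11.15, numpy 2.4.6, pandas 2.3.3 and matplotlib 3.10.9 were used. Promoters and symbols came from RefSeq tables of GRCr8, whose coordinates were not mixed with those of rn6.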

Additional observations from a re-analysis of the deposited data

How the results depend on the processing

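The median log2 ratios of pore-forming (0.21) and auxiliary genes (0.13) moved by less than 0.1 under each filter, pseudocount, summing and centring tried. The count of 4 channel genes past the size limit of 25% was 16 at 1.1-fold and 1 at 1.5-fold, where 41.0% and 4.73% of all symbols passed, in place of 13.7%. With a mean of at least 5 FPKM, which left out Scn1a, Scn3a and Cacng5, it was 3, where 7.72% of all symbols passed. With transcripts summed it was 2 of 29, a smaller share than the 12.9% of all symbols, since Scn1a and Cacna1g then lay under the limit. The 4 partner genes became 15 at 1.1-fold, 0 at 1.5-fold and 2 with transcripts summed (12.9% of all symbols passed). They became 2 with a mean of at least 5 FPKM, where fewer partner genes were kept and 7.72% of all symbols passed. No channel gene past the limit changed direction; among single ratios, Scn1a moved by over 0.1 with a pseudocount of 1 FPKM and when summed, and Cacnb2 moved and changed sign when summed. The tests on values per rat, including leaving out each replicate, could not be run on group values. No paired analysis was possible because neither FPKM column separates the rats.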
